A study of Mus musculus with 6 samples.

Results

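The genes described here are 10 effectors and targets of canonical Wnt signaling in mouse embryonic stem cells (ESCs). They are Ctnnb1, which encodes β-catenin; the TCF/LEF transcription factor genes Tcf7, Tcf7l1, Tcf7l2 and Lef1; and the pathway genes Axin2, Sp5, Nkd1, Wnt3 and Cdx1. Each was taken by its RefSeq accession, with the accession holding the most counts over all libraries standing for the gene, and all 10 were found among 21409 genes. RNA-seq had been performed on 6 libraries of V6.5 ESCs, a C57BL/6-129 hybrid line, after infection with lentiviral hairpins to learn what loss of cohesin or condensin does to gene expression. There was 1 library with the control hairpin against GFP, 1 with a hairpin against Smc1 (cohesin), 2 with different hairpins against CapH2 (condensin II) and 2 with different hairpins against Smc2 (a subunit that condensin I and condensin II share); they are called GFP, SMC1, CAPH2 and SMC2 below. All cells, GFP included, had been infected in 8 µg/ml polybrene, selected with puromycin (per the labels 0.5 µg/ml for 48 h, then 1 µg/ml for 48 h; the study's methods give a different dose) and grown for a passage on gelatin without the fibroblast feeder layer. RNA from the same number of cells went into each library.

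Wnt ligands bind Frizzled receptors and LRP co-receptors, which stops a complex of Axin, APC and the kinases GSK3 and CK1 from marking β-catenin for destruction. β-catenin then enters the nucleus and joins TCF/LEF proteins on DNA, and genes such as Axin2, Sp5, Nkd1, Lef1 and Cdx1 are transcribed. In ESCs the pathway favors self-renewal: TCF7L1 mainly represses pluripotency genes and β-catenin relieves that repression, while Wnt activity also drives genes of the primitive streak.

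The promoters of Axin2, Sp5 and Wnt3 are shown because these 3 genes lay above GFP in all 5 knockdown libraries and passed the test of the condensin hairpins against GFP. Each run holds 250 bases before and 50 bases after the RefSeq start in GRCm38.p6, on the plus strand, and each is identical to the mm9 sequence at the start of the row that was counted. Capitals mark CTTTGAT, a form of the TCF/LEF core. The windows are chr11:108920099-108920398 for Axin2, chr2:70474673-70474972 for Sp5 and chr11:103773925-103774224 for Wnt3.
Axin2: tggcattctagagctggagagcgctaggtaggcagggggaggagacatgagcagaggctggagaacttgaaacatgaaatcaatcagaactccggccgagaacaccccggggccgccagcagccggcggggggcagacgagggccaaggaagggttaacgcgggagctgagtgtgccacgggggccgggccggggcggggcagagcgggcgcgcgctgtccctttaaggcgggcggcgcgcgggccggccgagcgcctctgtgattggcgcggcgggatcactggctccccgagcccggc
Sp5: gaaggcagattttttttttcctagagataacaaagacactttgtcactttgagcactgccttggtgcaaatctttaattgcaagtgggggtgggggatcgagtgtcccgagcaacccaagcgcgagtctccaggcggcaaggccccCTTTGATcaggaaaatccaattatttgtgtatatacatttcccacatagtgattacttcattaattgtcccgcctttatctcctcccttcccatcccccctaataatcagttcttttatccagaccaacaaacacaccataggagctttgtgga
Wnt3: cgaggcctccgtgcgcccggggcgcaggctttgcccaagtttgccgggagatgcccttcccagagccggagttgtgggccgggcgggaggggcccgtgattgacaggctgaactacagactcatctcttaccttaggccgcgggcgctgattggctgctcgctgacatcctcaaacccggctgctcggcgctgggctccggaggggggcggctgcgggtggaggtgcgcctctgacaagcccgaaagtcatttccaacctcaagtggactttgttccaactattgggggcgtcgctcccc
The letters CTTTGAT or CTTTGAA were searched on both strands, and these motifs cannot overlap each other on a strand. Forms of the core with T in place of A after CTTTG were not searched. The promoter table held windows for 9 of the 10 genes, and Sp5 alone contained a match, CTTTGAT on the gene's own strand, starting 104 bases before the start. Cdx1 had no window, and the windows of Tcf7 and Nkd1 could not be matched to the start of the counted row. Of all 32851 promoter windows of this length, 3.73% held CTTTGAT, 5.14% held CTTTGAA and 8.65% held either. A match is a run of letters, and no binding was measured here.

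The libraries held between 19215780 and 23817456 counts on 1 row per gene. The hairpins reached their targets to different extents: Smc1a RNA was at 39.9% of GFP in SMC1, Ncaph2 RNA at 21.0% and 34.8% in the CAPH2 libraries, and Smc2 RNA at 70.7% and 71.9% in the SMC2 libraries. Smc2 RNA was also at 157% of GFP in SMC1 and at 159% and 152% in CAPH2. Ncaph2 RNA was at 67.3% of GFP in SMC1 and at 79.6% and 80.9% in SMC2. Smc1a RNA was at 115.6% to 130.2% of GFP in the condensin libraries. The ESC label matched the markers, since all 7 ESC markers were above 1 RPKM (reads per kilobase of transcript, scaled to the mapped reads of the library) in every library. Their summed level was 3529 RPKM in GFP, 2052 RPKM in SMC1 and 2959 to 3129 RPKM in the 4 condensin libraries. Synthetic ERCC RNAs, added by cell number, took between 0.948% and 1.77% of counts; scaling by them shifted the median of all genes against GFP by 0.86 (log2) in SMC1 and by -0.05 to 0.64 in the condensin libraries. Values below are relative to all mapped reads unless ERCC scaling is named.

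Axin2, Sp5 and Wnt3 were higher than in GFP in every knockdown library, β-catenin RNA stayed close to its GFP level, and Lef1 and Nkd1 stood high in the SMC1 library alone. Of the 10 genes, 5 lay above GFP in all 5 knockdown libraries (Ctnnb1, Tcf7l2, Axin2, Sp5 and Wnt3), against 26.5% of 12381 genes with at least 1 RPKM in GFP. Only Tcf7 lay below GFP in all 5, which 32.5% of the same genes did, and it lay above GFP in the averages of all 3 targets under ERCC scaling. Against GFP, 4 of the 10 at least doubled in the SMC1 library (log2 change of at least 1), where 6.45% of genes did so and 8.42% changed as much downward. In the CAPH2 average 2 genes, Wnt3 and Cdx1, passed that size, against a background of 0.444% (0.63% downward), and Cdx1 passed it only narrowly (log2 1.00) and not without the first CAPH2 library (log2 0.82), which left 1 gene. In the SMC2 average none did, against 0.234% (0.509% downward). With a pseudocount of 1 RPKM, Sp5 in SMC1 (log2 0.92) and Cdx1 in the CAPH2 average (log2 0.71) no longer reached a log2 change of 1. Lef1, Axin2 and Wnt3 in SMC1 and Wnt3 in the CAPH2 average still did. SMC1 and GFP were 1 library each, so their difference has no replicate check, and its intervals cover counting error only.

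**Figure D1:**
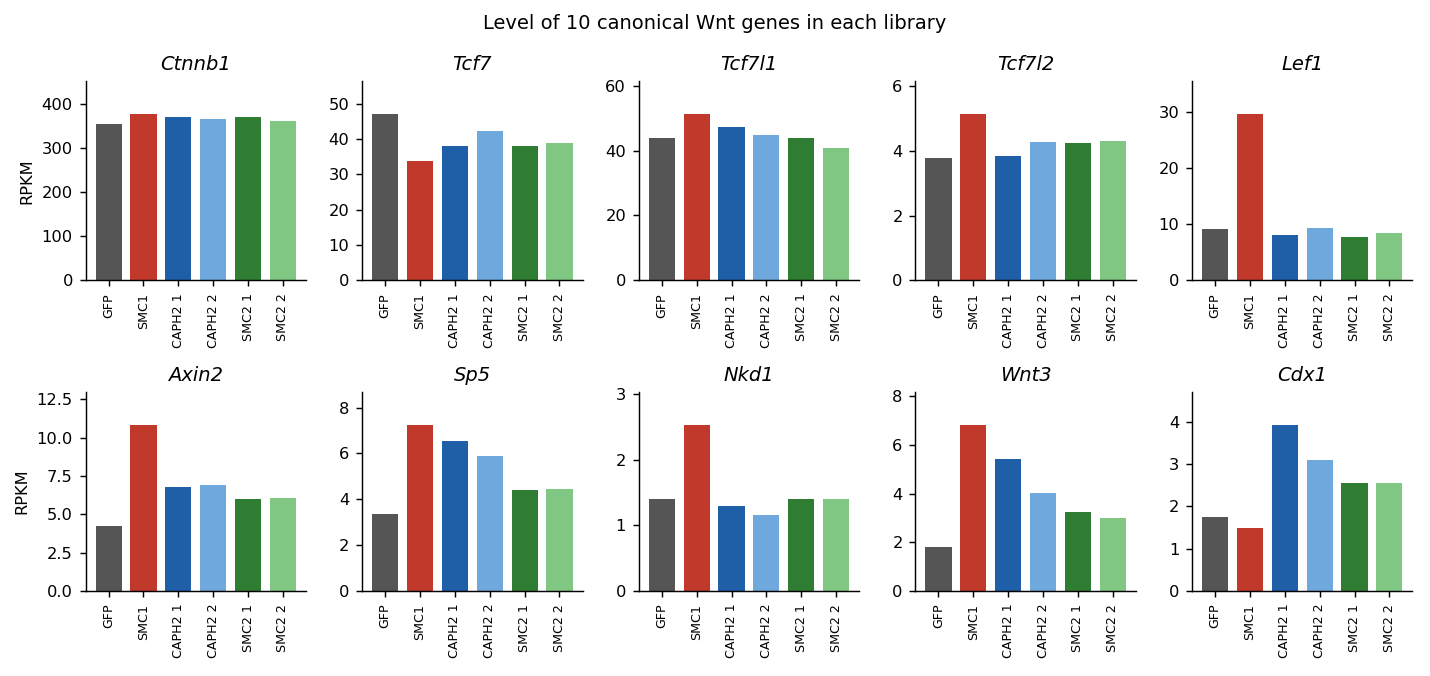
Level of each gene in RPKM (vertical axes, each from 0) in the 6 libraries, with bars for GFP (grey), SMC1 (red), the 2 CAPH2 hairpins (blue) and the 2 SMC2 hairpins (green). Lef1 stands at 29.5 RPKM in SMC1 and between 7.79 and 9.28 RPKM in the other 5 libraries, while Axin2, Sp5 and Wnt3 are lowest in GFP.

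Ctnnb1 (NM_007614; mm9 chr9:120842518-120869624, plus strand) was by far the most abundant of the 10. Its level was 354 RPKM in GFP, 377 in SMC1, 371 and 367 in CAPH2, and 371 and 361 in SMC2. All 5 knockdown libraries were slightly higher than GFP, at 101.8% to 106.5% of its level. β-catenin RNA did not pass either test: the fitted log2 difference of the condensin hairpins from GFP was 0.06 (SE 0.065, edgeR adjusted p = 0.578), and that of SMC1 from the condensin hairpins was 0.02 (SE 0.065, edgeR adjusted p = 0.827). β-catenin is controlled mainly through protein stability, which RNA-seq does not measure. An exon of Ulk4 overlaps the gene on the opposite strand, and the kit does not mark strand, so reads of the pair cannot be told apart.

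Among the TCF/LEF genes, Tcf7 and Tcf7l1 made up most of the RNA in GFP. Tcf7 (NM_009331; mm9 chr11:52066106-52095752, minus strand), whose protein acts with β-catenin as an activator, was at 47.0 RPKM in GFP, 33.8 in SMC1, 37.9 and 42.3 in CAPH2, and 38.1 and 38.8 in SMC2. GFP was the highest library and SMC1 the lowest. The log2 change of SMC1 against GFP was -0.48 (95% counting interval -0.57 to -0.38), and the condensin hairpins differed from GFP by -0.26 (SE 0.087), which missed the threshold (edgeR adjusted p = 0.0816). Under ERCC scaling the sign turned: the log2 change of Tcf7 was 0.39 in SMC1, 0.08 in the CAPH2 average and 0.31 in the SMC2 average, below the shift of the median gene in SMC1.

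Without the second CAPH2 library, Tcf7 passed the test of condensin hairpins against GFP at -0.30 (log2). In SMC1 against the condensin hairpins Tcf7 differed by -0.23 (log2, edgeR adjusted p = 0.0623), and it passed that test without the first CAPH2 library (log2 -0.29).

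Tcf7l1 (NM_001079822; mm9 chr6:72576374-72738950, minus strand), the main TCF repressor of ESCs, was at 44.0 RPKM in GFP, 51.2 in SMC1, 47.4 and 45.0 in CAPH2, and 43.8 and 40.8 in SMC2. The condensin libraries lay on both sides of GFP, and SMC1 was above them. Its fitted difference of SMC1 from the condensin hairpins was 0.20 (log2, SE 0.08, edgeR adjusted p = 0.0737). Of the 11 exons of the opposite-strand gene Gm15401, 3 overlap exons of Tcf7l1. Tcf7l2 (NM_001142918; mm9 chr19:55816300-56008144, plus strand) was the rarest family member, at 3.77 RPKM in GFP, 5.14 in SMC1, 3.85 and 4.29 in CAPH2, and 4.25 and 4.31 in SMC2. GFP was lowest and SMC1 highest, but the condensin hairpins' counting intervals all reached GFP, and SMC1 differed from the condensin hairpins by 0.28 (log2, SE 0.122, edgeR adjusted p = 0.0858); without the second CAPH2 library this difference was 0.31 and passed. Of 8 RefSeq rows of this gene, the one with the most counts was used.

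Lef1 (NM_010703; mm9 chr3:130813389-130926249, plus strand) is both a TCF/LEF factor and a direct target of the pathway. It was at 9.15 RPKM in GFP, 29.5 in SMC1, 8.15 and 9.28 in CAPH2, and 7.79 and 8.39 in SMC2. SMC1 stood apart from all other libraries. The condensin libraries were at 85.1% to 101.3% of the GFP level, and of them only the first SMC2 library lay below GFP beyond counting error. The SMC1 library had 3.23-fold the GFP level (log2 change 1.69, 95% counting interval 1.54 to 1.84). Against the 4 condensin libraries Lef1 was higher by 1.80 (log2, SE 0.101, edgeR adjusted p = 2.582e-06), and this call held under all 10 alternatives, with a highest adjusted p of 9.359e-05. The condensin hairpins against GFP gave -0.12 (log2, SE 0.117, edgeR adjusted p = 0.523); under ERCC scaling that value was 0.33.

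Lef1 thereby took a different share of the family's RNA. It was 8.81% of the summed TCF/LEF level in GFP, 24.7% in SMC1 and between 8.30% and 9.20% in the condensin libraries. Tcf7 took 45.2% in GFP, 28.2% in SMC1 and 39.0% to 42.0% in the condensin libraries, and Tcf7l1 took 42.3%, 42.8% and 44.2% to 48.7%. The summed level was 104 RPKM in GFP, 120 in SMC1 and 92.3 to 101 in the condensin libraries. These shares do not depend on how libraries are scaled.

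**Figure D2:**
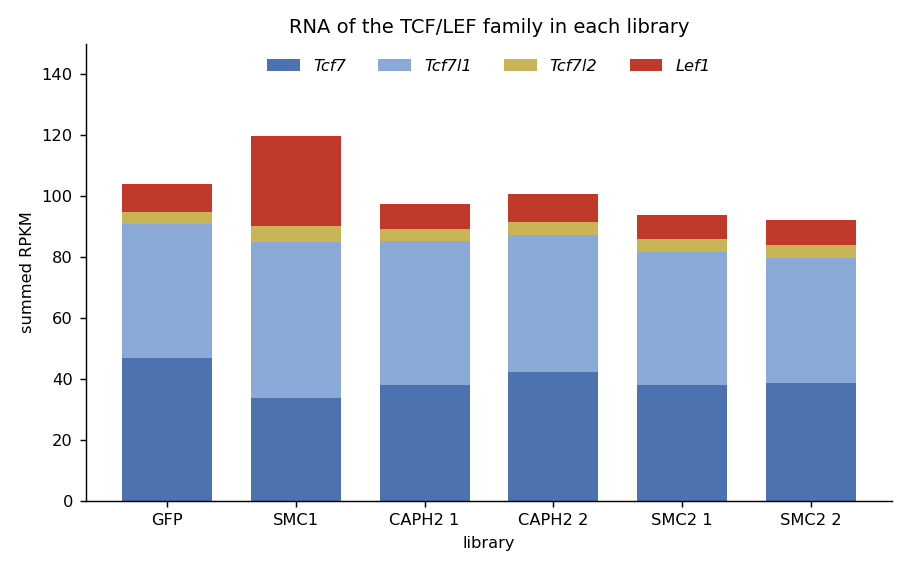
Summed RPKM of Tcf7, Tcf7l1, Tcf7l2 and Lef1 (vertical axis, from 0) in each of the 6 libraries, stacked by gene. The Lef1 segment in SMC1 is 24.7% of the bar, and in the other libraries it is at most 9.20%.

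Axin2 (NM_015732; mm9 chr11:108781663-108812095, plus strand) encodes a scaffold of the β-catenin destruction complex and is a negative feedback gene widely used as a readout of the pathway. It was at 4.23 RPKM in GFP, 10.8 in SMC1, 6.80 and 6.91 in CAPH2, and 5.99 and 6.09 in SMC2. The libraries fell in the order GFP, SMC2, CAPH2, SMC1, with hairpins of a target close together. Its counts ranged from 388 to 887. The SMC1 level was 2.56-fold that of GFP (log2 1.36, 95% counting interval 1.18 to 1.53). Axin2 rose with the condensin hairpins against GFP by 0.61 (log2, SE 0.109, edgeR adjusted p = 0.0133), and it was higher in SMC1 than in the condensin hairpins by 0.73 (SE 0.096, edgeR adjusted p = 2.577e-04).

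In the condensin test, leaving out any of the 4 condensin libraries kept the Axin2 call, with an adjusted p of 0.0492 without the first SMC2 library (edgeR). Of the 3 exons of the opposite-strand transcript Gm11670, 2 overlap exons of Axin2. ERCC scaling ended both Axin2 calls (log2 1.07, edgeR adjusted p = 0.753, and log2 1.15, edgeR adjusted p = 0.104), with larger differences and standard errors of 0.543 and 0.467.

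Sp5 (NM_022435; mm9 chr2:70312980-70315783, plus strand) encodes a zinc finger factor that Wnt induces directly. It was at 3.35 RPKM in GFP, 7.24 in SMC1, 6.54 and 5.88 in CAPH2, and 4.42 and 4.46 in SMC2. GFP was lowest, SMC2 stood between GFP and CAPH2, and SMC1 was highest. Against GFP, Sp5 was 2.16-fold in SMC1 (log2 1.11, 95% counting interval 0.83 to 1.41), and it rose with the condensin hairpins by 0.66 (log2, SE 0.155, edgeR adjusted p = 0.0268). SMC1 was above the condensin hairpins by 0.44 (log2, SE 0.138, edgeR adjusted p = 0.0256). Neither call held without 1 of the SMC2 libraries: without the first the condensin test gave an adjusted p of 0.0817 and the SMC1 test 0.0799, and without the second 0.0599 and 0.0603 (edgeR). Sp5 was also lost in both tests by DESeq2.

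Nkd1 (NM_027280; mm9 chr8:91045243-91118785, plus strand) encodes a Dishevelled-binding feedback inhibitor. It was at 1.40 RPKM in GFP, 2.53 in SMC1, 1.30 and 1.16 in CAPH2, and 1.41 and 1.41 in SMC2, from 94 to 210 counts. SMC1 was the only library outside the counting error of GFP, at log2 0.86 (95% counting interval 0.53 to 1.18). It exceeded the condensin hairpins by 0.92 (log2, SE 0.162, edgeR adjusted p = 0.00145), a call that held under all 10 alternatives up to an adjusted p of 0.0429. The condensin hairpins differed from GFP by -0.08 (log2, SE 0.176, edgeR adjusted p = 0.786), and by 0.39 under ERCC scaling.

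Wnt3 (NM_009521; mm9 chr11:103635489-103679335, plus strand) encodes a ligand that the embryo needs to form the primitive streak. Of the 10 genes it had the largest change against GFP in SMC1, in the CAPH2 average and in the SMC2 average. It was at 1.82 RPKM in GFP, 6.83 in SMC1, 5.42 and 4.03 in CAPH2, and 3.25 and 2.99 in SMC2, from 122 to 409 counts. No counting interval reached GFP, and the groups followed the order GFP, SMC2, CAPH2, SMC1. The SMC1 level was 3.75-fold that of GFP (log2 1.91, 95% counting interval 1.61 to 2.21).

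Wnt3 rose with the condensin hairpins by 1.09 (log2, SE 0.2, edgeR adjusted p = 0.0140). It was also higher in SMC1 than in the condensin hairpins by 0.81 (log2, SE 0.162, edgeR adjusted p = 0.00307). Without the first SMC2 library the condensin value was 1.05 with an adjusted p of 0.0519, just past the threshold (edgeR). ERCC scaling ended both calls at log2 values of 1.57 and 1.21 (edgeR adjusted p = 0.753 and 0.0742).

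Cdx1 (NM_009880; mm9 chr18:61178517-61195853, minus strand) is a caudal-type homeobox gene that answers to Wnt and retinoic acid. Unlike Axin2, Sp5, Nkd1, Wnt3 and Lef1, it did not lie above GFP in SMC1. It was at 1.75 RPKM in GFP, 1.49 in SMC1, 3.92 and 3.10 in CAPH2, and 2.56 and 2.55 in SMC2. All 4 condensin libraries lay above GFP beyond counting error, while SMC1 lay below it and within counting error (log2 -0.24, 95% counting interval -0.80 to 0.31). Going by the direction of RPKM alone, 5.4% of 12381 genes were higher than GFP in all 4 condensin libraries and lower in SMC1. Its values rest on few counts, 66 in GFP and 50 in SMC1.

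SMC1 was lower than the condensin hairpins by 1.03 (log2 -1.03, SE 0.242, edgeR adjusted p = 0.00721). The condensin hairpins exceeded GFP by 0.78 (log2, SE 0.229), just short of the threshold (edgeR adjusted p = 0.0531). This second value was a call without the first CAPH2 library (log2 0.69), without the second (log2 0.85) and with no filter on low counts (log2 0.78), besides a further alternative given in the closing section. Under ERCC scaling SMC1 was above GFP by 0.63 (log2), less than the shift of the median gene, and neither test called Cdx1; DESeq2 did not call SMC1 lower.

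**Figure D3:**
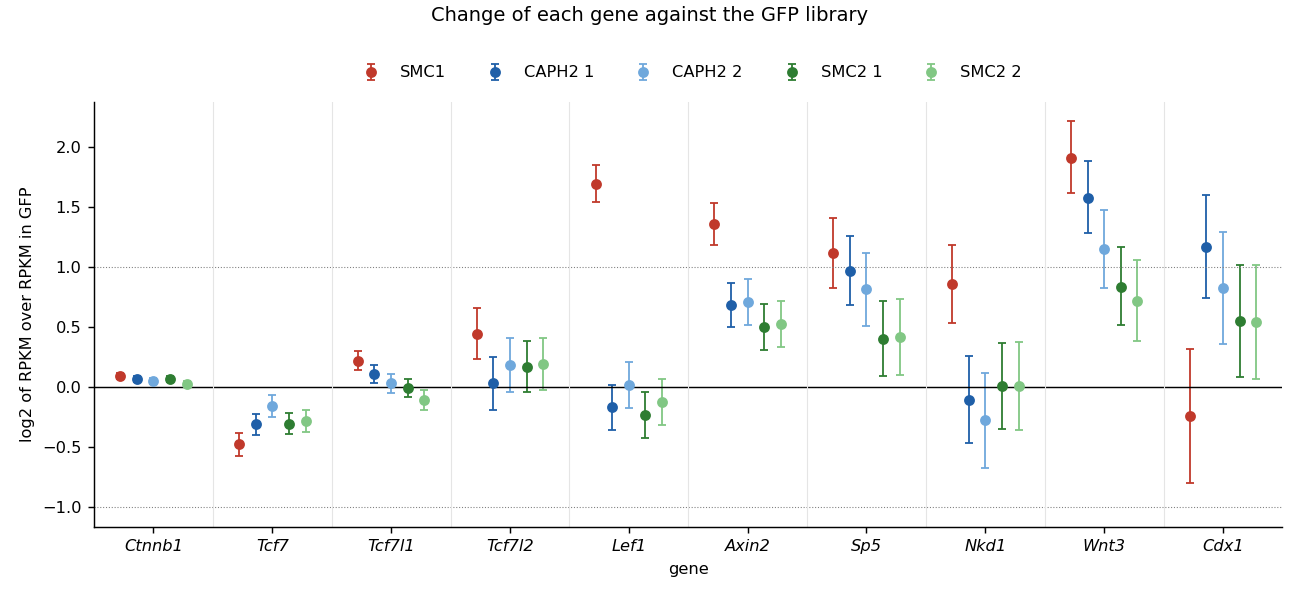
Log2 ratio of RPKM in each of the 5 knockdown libraries over GFP (vertical axis) for the 10 genes, with 95% counting intervals; the dotted lines mark -1 and 1. Points of Axin2, Sp5 and Wnt3 all lie above 0, Lef1 and Nkd1 rise clear of 0 in SMC1 alone, and Cdx1 is at -0.24 in SMC1 and between 0.54 and 1.16 in the condensin libraries; under ERCC scaling Cdx1 in SMC1 and the Tcf7 averages of all 3 targets turn positive.

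The test of the 4 condensin libraries against GFP asked which genes move with loss of condensin. It called 3 of the 10, all higher, where 12.2% of 14843 genes tested were called, 6.54% higher and 5.67% lower. The median log2 difference was 0.10 over the 10 and 0.00 over all genes. Axin2, Sp5 and Wnt3 were the 3, and the count was 1 (Axin2) without the first SMC2 library, 2 without the second, 4 without the first CAPH2 library and 5 without the second. GFP was a single library, and every comparison against it shares that library; it was assumed to vary like the hairpin pairs.

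The test of SMC1 against the condensin hairpins did not use GFP. It called 6 of the 10, with Lef1, Axin2, Nkd1, Wnt3 and Sp5 higher and Cdx1 lower. Over all genes 43.4% were called, 22.9% higher and 20.5% lower. The median log2 difference was 0.36 over the 10 and -0.01 over all genes. Under ERCC scaling only Lef1 and Nkd1 were called, both higher.

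Markers of other cell types also differed between SMC1 and GFP. Summed levels in GFP, in SMC1 and over the condensin libraries were 46.3, 96.7 and 50.6 to 73.6 RPKM for 8 fibroblast feeder markers, and 35.9, 80.5 and 44.0 to 49.9 RPKM for 4 neural markers. They were 113, 278 and 85.0 to 128 RPKM for 5 trophectoderm markers, 15.8, 24.0 and 16.9 to 26.0 RPKM for 5 mesendoderm markers, and 5.88, 10.6 and 6.51 to 7.78 RPKM for 5 primitive endoderm markers. In SMC1 all 8 fibroblast and all 4 neural markers were above GFP, as were 4 of 5 trophectoderm, 4 of 5 primitive endoderm and 3 of 5 mesendoderm markers. Nearly all of the trophectoderm sum came from the keratin genes Krt8 (51.4 RPKM in GFP and 117.5 in SMC1) and Krt18 (61.0 and 156 RPKM). Cdx2 (0.325 and 2.59 RPKM) and Gata3 (0.65 and 1.55 RPKM) added little to it. The mesendoderm sum followed T, itself a Wnt target (6.93 RPKM in GFP and 16.4 in SMC1), while Eomes (5.03 and 3.43 RPKM) and Gsc (2.81 and 2.26 RPKM) were lower in SMC1, as was Gata6 among the primitive endoderm markers (0.713 and 0.505 RPKM). Elf5, which defines trophoblast, was at 0 in all libraries except the second CAPH2 library (0.025 RPKM), and Lum stayed at or below 0.125 RPKM, while Col1a1 was at 20.8 RPKM in GFP and 39.4 in SMC1. The part of these cells in the Wnt gene values was not tested, and in bulk RNA fewer cells of a type and less RNA per cell cannot be told apart.

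None of these genes passed the test between the hairpins against different condensin subunits, although 5 of the 10 (Wnt3, Sp5, Cdx1, Axin2 and Tcf7l1) had lower levels in both SMC2 libraries than in both CAPH2 libraries, against 17.1% of 12381 genes. Nkd1 had higher levels in both, against 13.1%. The test of SMC2 against CAPH2, the only one with more than 1 library on each side, called 0 of the 10 by edgeR and 0 by DESeq2, where edgeR called 0.0202% of all genes (0.0135% higher and 0.00674% lower; 3 genes, against 7 by DESeq2). At an unadjusted p under 0.05 edgeR found 3 of the 10 and 465 of the 14843 genes tested. The 3 were lower in SMC2: Wnt3 by 0.60 (log2 -0.60, SE 0.157), Sp5 (log2 -0.48, SE 0.128) and Cdx1 (log2 -0.46, SE 0.185), each with an adjusted p of 0.998 (edgeR). Without the second CAPH2 library Wnt3 (log2 -0.77) and Sp5 (log2 -0.54) passed, with SMC2 against a single CAPH2 library. The knockdowns were unequal, as the target levels above show.

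**Figure D4:**
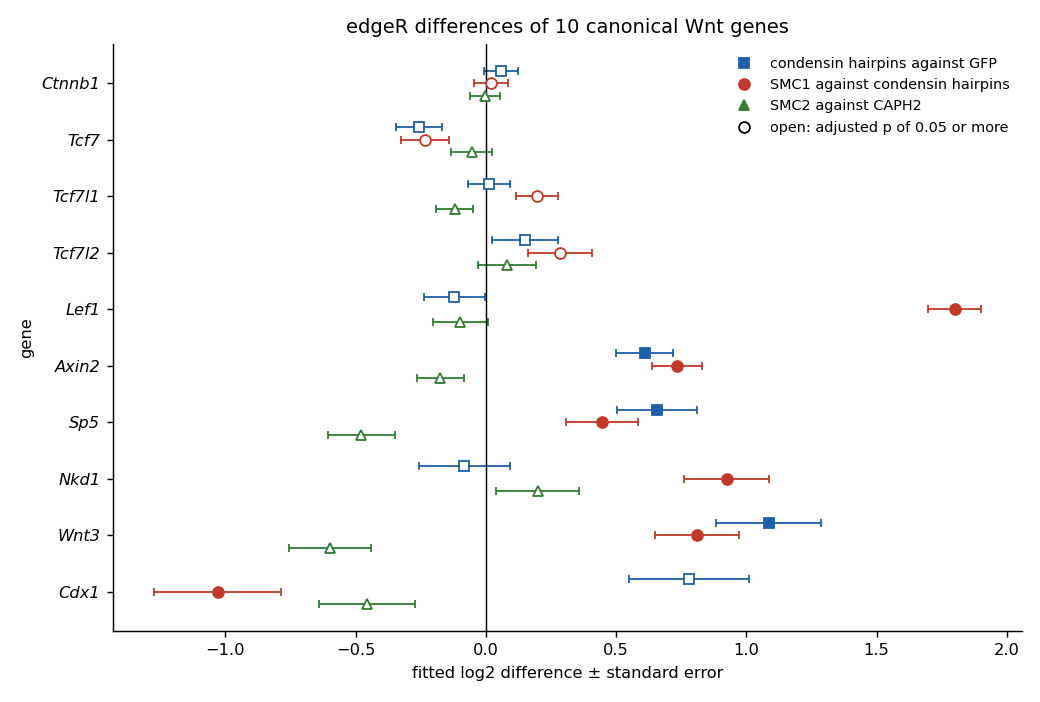
Fitted log2 differences (horizontal axis) with standard errors of the 10 genes in the 3 edgeR tests, condensin hairpins against GFP (squares), SMC1 against condensin hairpins (circles) and SMC2 against CAPH2 (triangles); filled symbols have an adjusted p under 0.05. The filled squares are Axin2, Sp5 and Wnt3, the filled circles add Lef1, Nkd1 and Cdx1 (at -1.03), and every triangle is open.

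Of 99 other genes of the pathway, in 9 lists, 92 were tested. With the condensin hairpins against GFP, 15 were higher and 5 lower (21.7% called, against 12.2% of all genes). In SMC1 against the condensin hairpins 38 were higher and 15 lower (57.6%, against 43.4%), and in SMC2 against CAPH2 none was called, by edgeR. Of the 17 condensin calls among genes named from these lists, 10 were lost without the first SMC2 library (Wls, Fzd9, Sfrp1, Fbxw11, Apc, Dvl2, Ctbp2, T, Myc and Klf2) and 3 without the second (Fzd9, Sfrp1 and Ctbp2). The 20 condensin calls of the lists became 7 without the first SMC2 library and 38 without the second CAPH2 library. Of the 28 named calls in SMC1 against the condensin hairpins, 1 (Ctbp2) was lost without the first SMC2 library. ERCC scaling ended all 17 condensin calls and 17 of the 28. The lists overlap with the markers, since Nanog, T, Mixl1 and Cdx2 stand in both.

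Among 18 Wnt ligand genes, 16 of which were tested, Wnt8a was higher and Wnt7b lower with the condensin hairpins than in GFP, a share close to the 12.2% of all genes. Wnt8a, a posterior embryonic ligand, was at 1.84 RPKM in GFP, 8.25 in SMC1, 8.55 and 5.46 in CAPH2, and 3.97 and 4.48 in SMC2. Like Wnt3 it was lowest in GFP and had both SMC2 levels below both CAPH2 levels, and its fitted rise with the condensin hairpins was 1.58 (log2, SE 0.283, edgeR adjusted p = 0.0133). Wnt7b was at 3.65 RPKM in GFP, 0.926 in SMC1 and 1.73 to 1.97 in the condensin libraries, a fall of log2 -0.98 with the condensin hairpins (SE 0.151, edgeR adjusted p = 0.00973). Against the condensin hairpins, SMC1 had 4 of the 16 ligands higher and 1 lower, beside 22.9% and 20.5% of all genes; Wnt9a had a log2 difference of 0.97 and Wnt7b of -1.01.

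Of the secretion genes, Wls, the carrier that takes Wnt proteins to the cell surface, was at 9.50 RPKM in GFP, 26.3 in SMC1 and 11.5 to 16.2 in the condensin libraries. It rose in both tests (log2 0.49, edgeR adjusted p = 0.0287, and log2 0.97, edgeR adjusted p = 7.927e-05). Porcn, the enzyme that attaches the lipid to Wnt proteins, moved otherwise, at 26.8 RPKM in GFP, 15.2 in SMC1 and 26.8 to 29.8 in the condensin libraries, and was lower in SMC1 than in the condensin hairpins by log2 -0.94 (edgeR adjusted p = 9.813e-05).

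Receptor genes were the list with the most calls in SMC1. Of 14 tested, 10 were higher and 1 lower in SMC1 than in the condensin hairpins (22.9% and 20.5% over all genes). Of the 13 with at least 1 RPKM in GFP, 7 at least doubled against GFP, as 6.45% of all such genes did. Fzd6 was at 3.24 RPKM in GFP, 8.98 in SMC1 and 3.36 to 4.23 in the condensin libraries (log2 1.22, SE 0.114). Fzd1 (log2 1.30, SE 0.169) and Fzd10 (log2 1.10, SE 0.108) had like differences, and Fzd10 stood at 26.0 RPKM in SMC1 against 9.87 in GFP. With the condensin hairpins against GFP, Lrp6, a co-receptor, rose by 0.61 (log2, SE 0.1, edgeR adjusted p = 0.0108) and Fzd9 was lower (log2 -0.51, SE 0.144, edgeR adjusted p = 0.0471). Among 7 secreted antagonists tested, Sfrp1 fell with the condensin hairpins (log2 -0.51, edgeR adjusted p = 0.0459), from 54.3 RPKM in GFP to between 29.7 and 42.0, and was at 21.6 in SMC1. Sfrp1 was the only antagonist called in that test, where 12.2% of all genes were called. Of the 7 antagonists, 2 were higher in SMC1 than in the condensin hairpins, Sfrp2 (log2 1.04) among them, and 2 were lower, Sfrp4 (log2 -1.59) and Sfrp1 (log2 -0.83). Over all genes 22.9% were higher and 20.5% lower.

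In the destruction complex and Dishevelled list of 16, 5 genes were higher and 1 lower with the condensin hairpins, by less than 1.5-fold each. Over all genes 6.54% were higher and 5.67% lower in that test. Apc, the scaffold of the complex (log2 0.37, edgeR adjusted p = 0.0216), Fbxw11, an E3 ligase adaptor (log2 0.39, edgeR adjusted p = 0.0163), and Tnks, which marks Axin for turnover (log2 0.44, edgeR adjusted p = 0.0262), rose. Dvl2, which relays the receptor signal, fell (log2 -0.37, edgeR adjusted p = 0.0216; 0.09 under ERCC scaling), while Dvl3 gave 0.30 with an adjusted p of 0.0916 (edgeR). In SMC1 against the condensin hairpins 6 of the 16 were higher and 2 lower, beside 22.9% and 20.5% of all genes. Of 14 nuclear cofactors, Chd8 (log2 0.37, edgeR adjusted p = 0.0230) and Ctbp2 (log2 0.25, edgeR adjusted p = 0.0459) rose with the condensin hairpins, where 12.2% of all genes were called. Against the condensin hairpins, SMC1 had 7 of the 14 higher and 2 lower, beside 22.9% and 20.5% of all genes. Bcl9l at 0.68 (log2) and Crebbp at 0.48 (log2) were among the 7.

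Among 13 other targets and feedback genes tested, 4 rose with the condensin hairpins and none fell, beside 6.54% and 5.67% of all genes. T, the brachyury gene of the primitive streak, was at 6.93 RPKM in GFP, 16.4 in SMC1, 13.3 and 15.2 in CAPH2, and 10.2 and 8.84 in SMC2 (log2 0.75, SE 0.14, edgeR adjusted p = 0.0142). Sp8, a relative of Sp5, was at 1.66 RPKM in GFP, 10.5 in SMC1 and 2.26 to 3.33 in the condensin libraries (log2 0.76, SE 0.156, edgeR adjusted p = 0.0190). Myc rose by 0.90 (log2, SE 0.171, edgeR adjusted p = 0.0157), and Cdx2 is described in the closing section. In SMC1 against the condensin hairpins 6 were higher and 1 lower, beside 22.9% and 20.5% of all genes. Sp8 gave 1.90 (log2) and Msx2 0.83 (log2), and the gene that fell was Notum, a secreted enzyme that inactivates Wnt proteins, at 13.7 RPKM in GFP, 3.97 in SMC1 and 13.6 to 17.0 in the condensin libraries (log2 -1.91, SE 0.167).

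All 5 genes listed here as repressed by TCF7L1 in ESCs were lower in SMC1 than in the condensin hairpins, where 20.5% of all genes were called lower. Whether TCF7L1 acted on them in these cells was not tested. All 5 at least halved against GFP, as 8.42% of genes with at least 1 RPKM in GFP did. These are pluripotency factors, and the summed ESC markers were lower in SMC1 too. Nanog stands in both lists, so the 2 observations are not separate. Esrrb was at 210 RPKM in GFP, 21.5 in SMC1 and 158 to 182 in the condensin libraries (log2 -3.03, SE 0.104). Tfcp2l1 gave -3.10 (log2, SE 0.138) and Klf2 -2.62 (log2, SE 0.114). Klf2 also passed the test of the condensin hairpins against GFP (log2 -0.44, SE 0.088, edgeR adjusted p = 0.0169; 0.005 under ERCC scaling), a call lost without the first SMC2 library. Esrrb (log2 -0.27, edgeR adjusted p = 0.0536) and Nanog (log2 -0.24, edgeR adjusted p = 0.0624) missed the threshold, with all 4 condensin libraries below GFP. Among 5 adherens junction partners of β-catenin, Cdh2, which encodes N-cadherin, was at 4.36 RPKM in GFP, 20.6 in SMC1 and 6.82 to 7.50 in the condensin libraries, and rose in both tests (log2 0.75, edgeR adjusted p = 0.00973, and log2 1.48, SE 0.086). Ctnnd1 was the other call in SMC1 (log2 0.28, SE 0.075), and Jup (log2 -0.19, SE 0.086) was not called. In that test 2 of the 5 partners were thus higher and 0 lower, beside 22.9% and 20.5% of all genes. With the condensin hairpins against GFP 1 of the 5 was called, beside 12.2% of all genes.

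**Figure D5:**
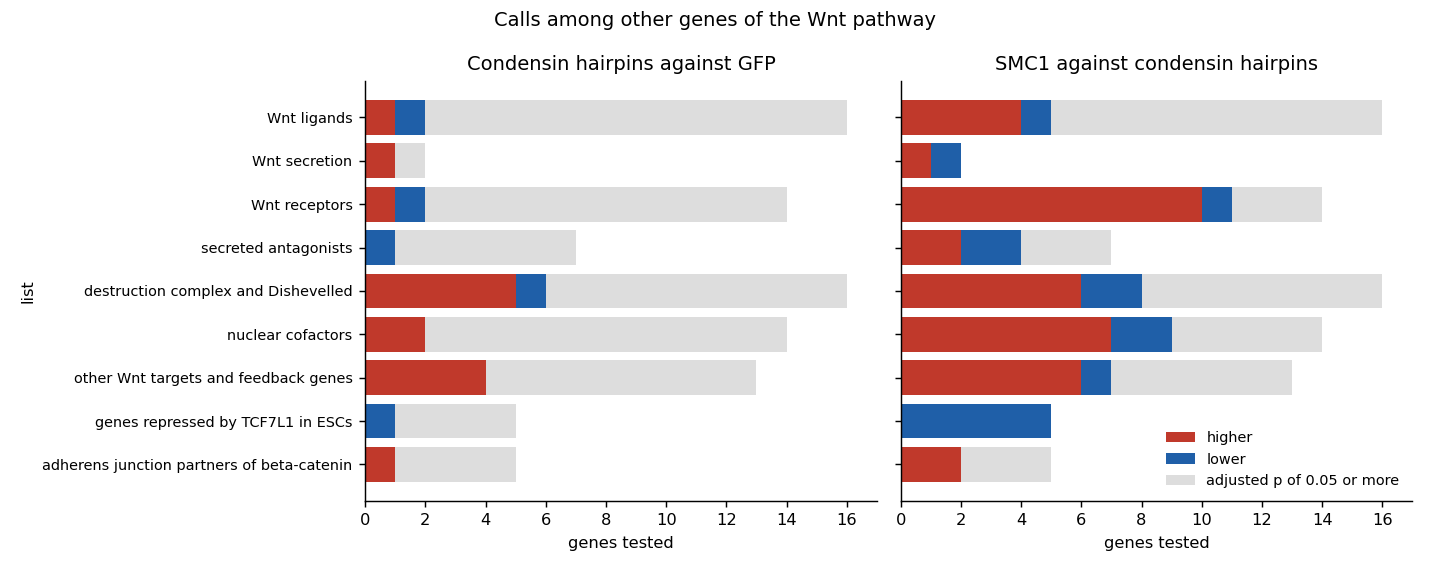
Number of genes tested in each list of the Wnt pathway (horizontal axis), split into higher (red), lower (blue) and not called (grey) at an adjusted p of 0.05 by edgeR, for the condensin hairpins against GFP (left) and SMC1 against the condensin hairpins (right). In the right panel 10 of 14 receptor genes are higher and 5 of 5 genes listed as repressed by TCF7L1 are lower, beside 22.9% and 20.5% of all genes.

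The genes whose levels followed Axin2 most closely over the 6 libraries were looked for among 12463 others with a mean of at least 50 counts, by the root mean square difference of centered log2 RPKM. Tgfbr1, a TGF-β receptor, was nearest (0.0428), at 7.44 RPKM in GFP, 18.2 in SMC1, 12.1 and 11.7 in CAPH2, and 10.4 and 11.2 in SMC2. Erbin (0.059) and a row at the same place as Erbin's that has no symbol in the table (0.0568) came next, and they count largely the same reads. Within the 10 genes Sp5 was nearest to Axin2 (0.169), at rank 289.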

How the data were processed

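RNA had been poly(A)-selected with the unstranded TruSeq v2 kit, and per the labels the authors aligned reads to mm9 with Bowtie; the study's methods give RPKM_count as the counter. The deposited files held, for each RefSeq transcript, a count of reads over its exons and the RPKM that the authors made from it, without ERCC scaling. Rows were joined to symbols by accession (25353 of 26073 RefSeq rows matched), and the row with the most counts stood for a gene. A read shared by transcripts can be counted in several rows.

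From the deposited counts edgeR 4.0.16 (R 4.3.3; TMM, quasi-likelihood test, Benjamini-Hochberg adjustment over all genes tested, two-sided, called at an adjusted p under 0.05) was fitted once to all 6 libraries in 4 groups, on the 14843 genes that reached 10 counts in 2 libraries or more. Libraries of a target are different hairpins, nothing in the labels says that cultures were repeated, and p-values measure the spread between hairpins. GFP and SMC1, with 1 library each, were assumed to vary likewise. Changes of SMC1, of the CAPH2 average and of the SMC2 average against GFP were log2 ratios of RPKM without a test, with exact binomial 95% intervals of the count ratio, which cover counting error only. On simulated counts the script recovered 173 of 200 changed genes in SMC2 against CAPH2 (14723 genes). It made 191 calls, of which 18 were false. The counts were drawn with the fitted spread, and all other genes had no difference between groups. This checked the script and does not give the power of the test in the real data.

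The 10 genes, the pathway and marker lists and the tests were chosen with earlier results of these data known, so no list serves as independent evidence. Named pathway genes were, per list, up to 3 with the largest SMC1 change against GFP (at least 1 RPKM in GFP and a mean of at least 50 counts) and up to 3 with the lowest adjusted p under 0.05 against GFP. Fzd5 and Fzd7 were named besides, after their values were seen, and are not among the named calls counted above. Promoters came from RefSeq (GRCm38.p6) and gene overlaps from GENCODE vM1 (mm9). Alternatives were DESeq2 1.42.0 size factors and test, ERCC scaling, no low-count filter, a pseudocount, a replicate block and leaving out libraries.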

Additional observations from a re-analysis of the deposited data

Results flagged for a closer look

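Cdx1 moved against GFP in opposite directions: it was lower in the SMC1 library (log2 -0.24) and higher in all 4 condensin libraries (log2 0.54 to 1.16). The difference between SMC1 and the condensin hairpins had an edgeR adjusted p of 0.007211, and adjusted p-values over the 10 alternatives ran from 4.497e-05 to 0.6046. The SMC1 value rests on 50 counts in 1 library and lay within counting error of GFP; under ERCC scaling it was above GFP by 0.63 (log2).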

How the results depend on the processing

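Calls over all genes with the condensin hairpins against GFP were 1812, and they became 3 under ERCC scaling, 1120 by DESeq2's test and between 399 and 4075 when a library was left out; of the 10 Wnt genes 3 became 0 under ERCC scaling, and between 1 and 5 with a library left out. In SMC1 against the condensin hairpins ERCC scaling left 1420 calls (1272 higher, 148 lower) in place of 6443 (3399 higher, 3044 lower), and 2 of the 10 genes in place of 6. In SMC2 against CAPH2 the 3 calls became 6 without the low-count filter, 7 by DESeq2 and between 1 and 345 with a library left out, and between 0 and 2 of the 10 genes. Tcf7 against GFP reversed under ERCC scaling, to 0.389 in SMC1, 0.084 in the CAPH2 average and 0.312 in the SMC2 average (log2). The ERCC factors differ between hairpins of a target, and the cause was not tested. The CAPH2 and SMC2 libraries share replicate numbers only: deviations of same-numbered libraries correlated at 0.121 over 12464 genes, in 2 pairs. With the replicate number as a block, condensin hairpins against GFP gave 3830 calls (5 of the 10 genes, with Cdx1 at log2 0.87 and Tcf7 at log2 -0.30 added) and SMC2 against CAPH2 gave 94 (1 of the 10, Wnt3). DESeq2 gave no adjusted p for some scarce genes, which were left out of its calls. Single libraries of GFP and SMC1, and the 50 to 160 counts of Cdx1, limit precision. Lef1 and Nkd1 kept their calls in SMC1 against the condensin hairpins under all 10 alternatives.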

Other observations

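The other caudal-type genes did not share the Cdx1 pattern; they were chosen here after their values were seen. Cdx2 was at 0.325 RPKM in GFP, 2.59 in SMC1, 0.959 and 0.916 in CAPH2, and 0.973 and 0.708 in SMC2. It was higher with the condensin hairpins than in GFP (log2 1.45, SE 0.369, edgeR adjusted p = 0.0339; a call lost under ERCC scaling and without the first SMC2 library) and in SMC1 than in the condensin hairpins (log2 1.52, SE 0.242), where Cdx1 was lower. Cdx4 was at 0.233 RPKM in GFP, 1.57 in SMC1 and 0.323 to 0.501 in the condensin libraries, and SMC1 exceeded the condensin hairpins by 1.89 (log2, SE 0.322), a call that DESeq2's test did not make (adjusted p = 0.0627). Both were near or below 1 RPKM outside SMC1, and Cdx2 also stands among the trophectoderm markers, whose part in these values was not tested.

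Ligand genes below 1 RPKM in GFP fell outside the naming rule. Wnt10b, chosen after its values were seen, was at 0.125 RPKM in GFP, 1.71 in SMC1 and 0.14 to 0.334 in the condensin libraries, with a log2 difference of SMC1 from the condensin hairpins of 2.71 (SE 0.333). Wnt3a, the ligand closest to Wnt3, was at 0.169 RPKM in GFP, 0.322 in SMC1 and 0.285 to 0.425 in the condensin libraries, and its log2 difference of the condensin hairpins from GFP of 0.97 (SE 0.454) was not called (edgeR adjusted p = 0.181).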
